A study of Homo sapiens with 21 samples.

Results

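The gefitinib-resistant lung cancer line HCC827GR was compared with HCC827P, the line it was derived from. Both were found by their cell line label, which gave 2 of the 21 libraries of the series, 1 per line. HCC827P is labelled as an established, drug-sensitive line and HCC827GR as a derived line resistant to gefitinib. Both were cultured in RPMI 1640 medium with fetal bovine serum and antibiotics, and the labels name no genetic modification of either. The labels do not say whether HCC827GR is a clone or a pool of cells, or whether gefitinib was in the medium when RNA was taken. The series holds 17 cell lines, parents and the resistant lines raised from them. Its study asked whether changes of DNA methylation play a part in resistance of cells that gain mesenchymal features. The HCC827P library had 17336661 counts on genes and the HCC827GR library 15548012, so that 3 counts, the smallest number taken as detected, made 0.173 and 0.193 CPM, the unit used throughout (a gene's count over the library's total on genes, scaled to a common total). With 1 library per line no difference given here has a replicate check, and no p-value was computed. Intervals are 95% intervals made from the Wilson intervals of both libraries. They cover counting error only, not differences between cultures or library preparations. Copies made by PCR are not independent molecules, so even the counting error may be understated.

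HCC827 cells carry an activating mutation of EGFR, a receptor tyrosine kinase whose signal through the RAS-ERK and PI3K-AKT cascades keeps them growing. Gefitinib blocks the kinase of EGFR, and resistant lung cancer cells are known to restore the cascades through other receptors, often called bypass receptors, or to survive without them. Some resistant cells also pass through an epithelial-to-mesenchymal transition (EMT), in which the cadherin, claudin and keratin genes of an epithelium are repressed, partly by the transcription factors ZEB1 and ZEB2, and vimentin, N-cadherin and matrix genes are switched on.

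HCC827P had marker genes of a lung epithelium, and some of them were lower in HCC827GR. Of 8 tested lung lineage genes 1 rose and 3 fell (median -0.18). The most abundant of them, LPCAT1, which makes surfactant lipid, had 855 CPM in HCC827P and 665 CPM in HCC827GR, and the airway secretory gene SCGB3A2 104 and 174 CPM. The simple-epithelium keratin gene KRT8 had 648 CPM in HCC827P and 347 CPM in HCC827GR, and its partner KRT18 fell from 566 to 248 CPM. NKX2-1, the transcription factor that specifies lung epithelium and marks most lung adenocarcinomas, fell from 56 to 15.4 CPM. The aspartic protease gene NAPSA, another adenocarcinoma marker, fell from 35.4 to 12.3 CPM. Surfactant genes were near the limit of detection in both lines, with 0.346 and 0.450 CPM for SFTPB and 0 counts for SFTPC. Across the 13793 tested genes, which are not independent replicates, log2 CPM of HCC827GR correlated with HCC827P at r = 0.901, and the next highest value, 0.823, was that with PancB1Q, a pancreatic line.

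Markers of other cells are given here because bulk RNA mixes all cells of a dish. In such RNA, fewer cells of a type and less RNA per cell cannot be told apart. The fibroblast list of 10 genes summed to 7.50 CPM in HCC827P and 13.5 CPM in HCC827GR, and 2 of its genes were abundant enough to test. Its most abundant gene was COL1A1 in HCC827P, with 6.81 CPM, and COL3A1 in HCC827GR, with 9.58 CPM. COL1A1 fell and COL3A1 rose, while POSTN had 0 counts in both lines and LUM, DCN, FAP, THY1 and PDGFRB stayed at or under 0.231 CPM. The leukocyte list of 8 genes summed to 134 and 322 CPM, of which CD68, a lysosomal protein gene that rose, made 133 and 318 CPM. ITGAM, an integrin of myeloid cells, rose from 0.288 to 3.79 CPM, but the defining leukocyte genes PTPRC, CD3E and MS4A1 had 0 counts in both libraries. The 5 matched endothelial genes summed to 0.231 and 0.193 CPM, VWF being the most abundant with 0.115 and 0.0643 CPM and ERG having 0 counts in both.

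A gene was tested where its mean over both libraries was at least 1 CPM, and it was counted as higher or lower where CPM + 1 differed at least 2-fold. A gene near 0 in 1 line thus passed this filter only through the other line. In HCC827GR 1448 of the tested genes (10.5%) were higher and 1075 (7.79%) were lower than in HCC827P. The counts of list members past the fold given below are to be read beside these shares. The median log2 fold change of all tested genes was 0.04, and the quartiles were -0.39 and 0.48. Large increases outnumbered large decreases, with 66 genes at least 16-fold higher and 18 genes at least 16-fold lower. Among the higher genes 56 had 0 counts in HCC827P, and among the lower genes 5 had 0 counts in HCC827GR. The counting interval of all 2523 log2 fold changes past the fold left out 0. Increases made up 57.4% of the genes past the fold, a share that depended on the scaling: with DESeq2 size factors, which shift the median of the tested genes by -0.14, it was 45.3%. With a pseudocount of 5 CPM, which shrinks low levels, some genes that are past the fold here came within it. Among them were RNF43, COL1A1, GAS6, ABCG2, SNAI1, DNMT1, DSC3, IRF7, ANKRD1, CDKN1C, S100A3, NCAM1, ITGAM, OVOL2 and REL. So were KRT6A, ROS1, OAS1, CEACAM1, LATS2, TAP1, HERPUD1 and ATF3.

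**Figure D1:**
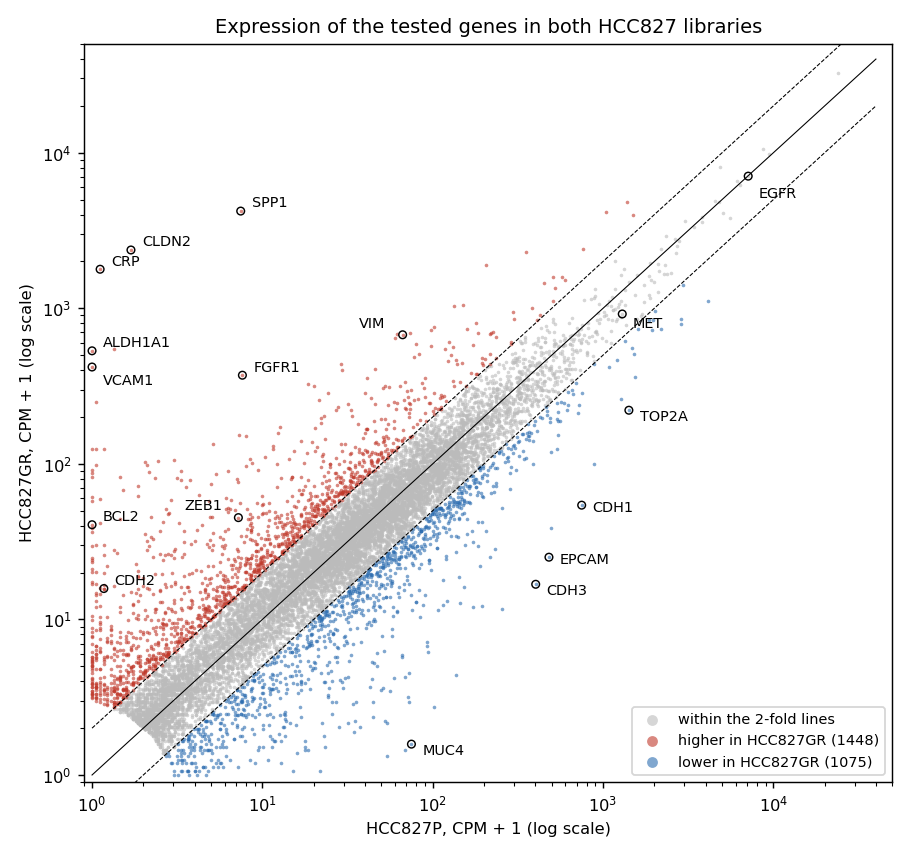
Level of each tested gene in HCC827P (x axis, CPM + 1, log scale) and HCC827GR (y axis, CPM + 1, log scale), 1 library per line, with genes at least 2-fold higher in red, at least 2-fold lower in blue and dashed lines at the 2-fold limit; Y-linked genes and XIST are not drawn. CRP, CLDN2 and SPP1 lie far above the diagonal, MUC4, CDH3 and EPCAM far below it, and EGFR lies on it with 7113 and 7069 CPM.

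Other lines of the series with 2 libraries gave a scale for such differences. Between the 2 libraries of HepG2 5.13% of the tested genes differed at least 2-fold, between those of HepG2S3 0.0840% and between those of HCC4006ER 0.00714%, against 18.3% between HCC827GR and HCC827P. HCC4006P1, without the genes that its replicate 1 lacks, had 4.25% and a median absolute log2 difference of 0.24. That median was 0.26 in HepG2, 0.10 in HepG2S3, 0.11 in HCC4006ER and 0.44 in the HCC827 pair. The labels give both HepG2 libraries, and both HepG2S3 libraries, the same replicate number, so that it is not known what these pairs repeat. How much 2 libraries of HCC827P or HCC827GR would differ is not known.

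**Figure D2:**
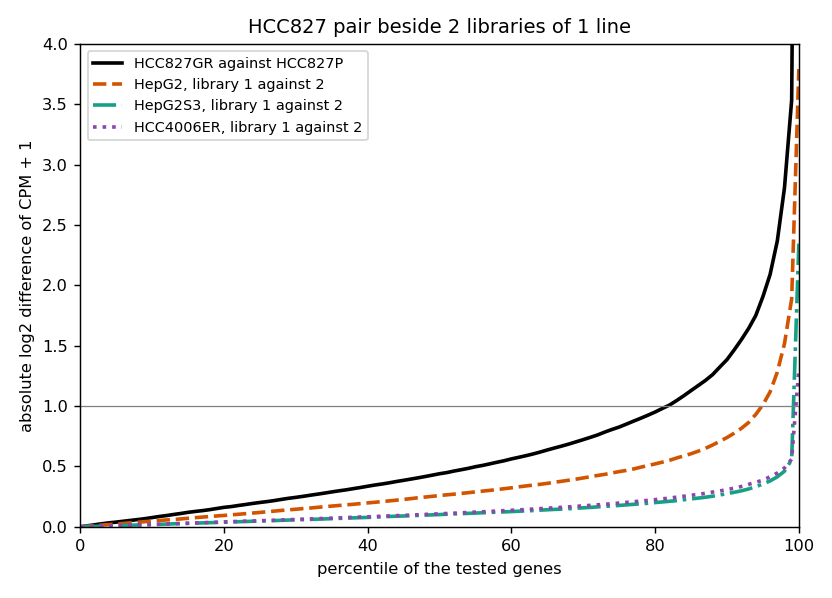
Absolute log2 difference of CPM + 1 (y axis) by percentile of the tested genes (x axis, percent) for HCC827GR against HCC827P and for the 2 libraries of HepG2, HepG2S3 and HCC4006ER; the grey line marks a 2-fold difference. The HCC827 curve lies above the others at its median, at 0.44 against 0.26, 0.10 and 0.11.

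Among genes with a mean of at least 10 CPM, CRP, CLDN2 and SPP1 had the largest log2 fold changes of CPM + 1, an order that depends on the added 1 CPM for genes near 0 in HCC827P. CRP, C-reactive protein, which the liver releases in the acute phase of inflammation, lies on chromosome 1 from 159682079 to 159684379 of GRCh37. It had 2 counts in HCC827P, or 0.115 CPM, and 1781 CPM in HCC827GR, or 10.64 on the log2 scale (interval 10.29 to 10.76). In the 19 libraries of the other lines CRP did not exceed 0.0860 CPM. CLDN2, a claudin that forms cation pores in the tight junctions of leaky epithelia, lies on chromosome X from 106143394 to 106174091. It rose from 0.692 to 2369 CPM, a log2 fold change of 10.45 (10.07 to 10.73), and the highest other library, PancVB, had 52.2 CPM. SPP1, on chromosome 4 from 88896819 to 88904684, encodes osteopontin, a secreted ligand of integrins and CD44. Its level was 6.46 CPM in HCC827P and 4214 CPM in HCC827GR (log2 9.14, 8.91 to 9.37), and HepG2 replicate 2 had 3120.0 CPM. ALDH1A1, an aldehyde dehydrogenase used as a marker of stem-like and drug-tolerant cells, had 0 counts in HCC827P and 532 CPM in HCC827GR, at least 3073-fold higher. VCAM1, the adhesion molecule of inflamed endothelium, also had 0 counts in HCC827P and reached 418 CPM, at least 2417-fold higher, against at most 24.8 CPM in any other line. The same direction was found for AKR1C2, a ketosteroid reductase, with 0.346 and 546 CPM (log2 8.67). TNFAIP6, a hyaluronan-binding protein induced by tumour necrosis factor, had 1 count in HCC827P and 249 CPM in HCC827GR (log2 7.89, 7.56 to 7.97). The C-type lectin receptor gene CLEC4E had 0 counts and 124 CPM, at least 718-fold more. TENM3, a teneurin of neuronal contacts, went from 1 count to 124 CPM (log2 6.88, 6.55 to 6.97).

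The largest decreases by the same measure began with TMPRSS11E, MUC4 and SCEL. TMPRSS11E, a membrane-bound serine protease, fell from 68 to 0.450 CPM (log2 -5.57, -5.84 to -5.15). MUC4, a membrane mucin that binds ERBB2, lies on chromosome 3 from 195473636 to 195538844 and fell from 74 to 0.579 CPM (log2 -5.57, -5.86 to -5.15). SCEL, a protein of the cornified envelope, fell from 53.1 to 0.322 CPM. These genes lost nearly all of their reads. The adhesion receptor ADGRF1 fell from 101 to 1.74 CPM, and GALNT3, which starts the O-glycan chains of mucins, from 135 to 3.41 CPM. AZGP1, a secreted zinc-binding glycoprotein, fell from 52.8 to 1.16 CPM. CDH3, P-cadherin, lies on chromosome 16 from 68670092 to 68761371 and fell from 401 to 15.8 CPM (log2 -4.58, -4.75 to -4.41). S100A9, a calcium-binding protein of squamous epithelium and myeloid cells, fell from 51.4 to 1.22 CPM, and TMEM30B, a lipid flippase subunit, from 70.7 to 2.19 CPM.

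**Figure D3:**
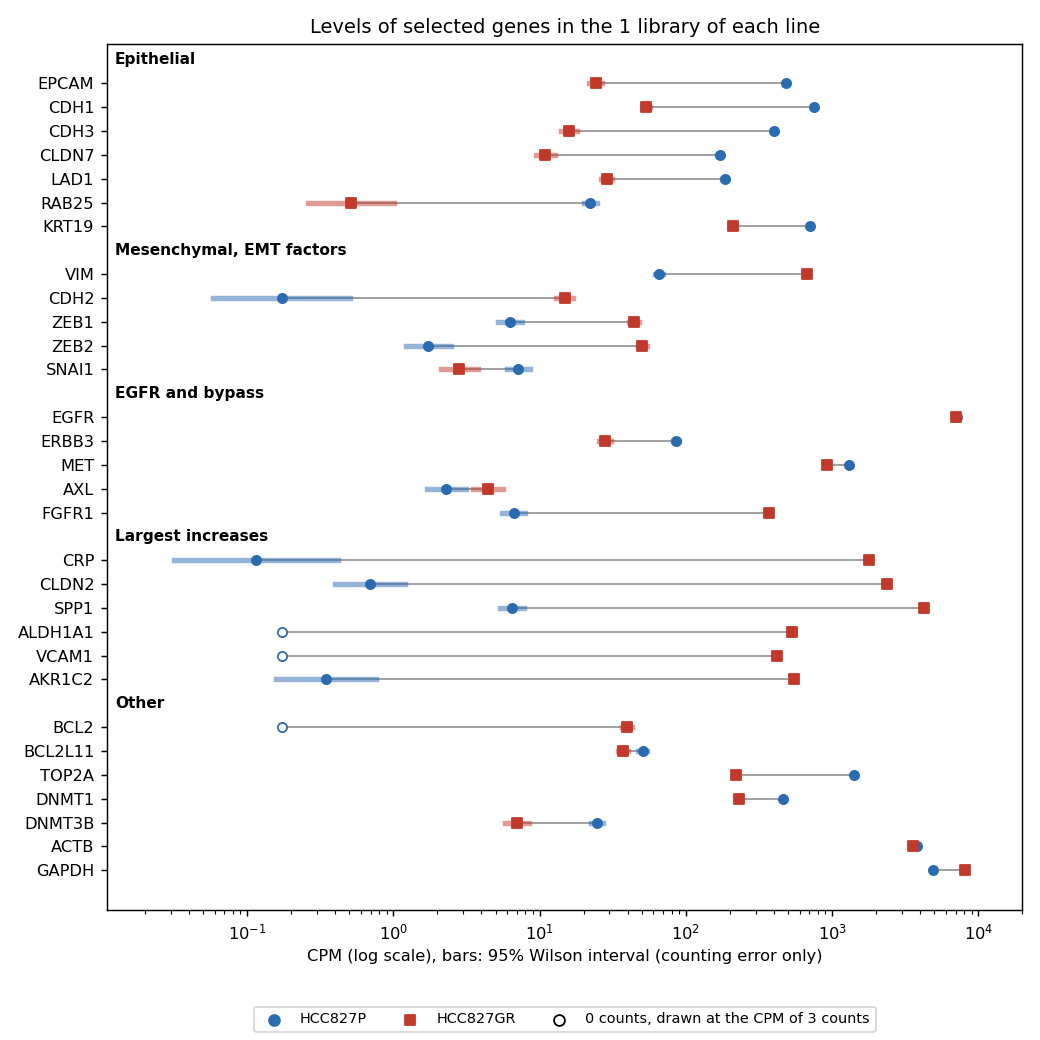
Level in CPM (x axis, log scale) of selected genes in HCC827P (blue circles) and HCC827GR (red squares), 1 library each, with bars for the 95% Wilson interval of counting error and open circles for 0 counts, drawn at the CPM of 3 counts. CRP goes from 0.115 to 1781 CPM, CDH3 from 401 to 15.8 CPM, and EGFR has 7113 and 7069 CPM.

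Most tested epithelial transcription and splicing factors fell. Of 15 tested genes of the list of epithelial regulators, 10 fell and 0 rose, with a median log2 fold change of -1.66 against 0.04 over all tested genes. ESRP1, which directs the epithelial splice forms of FGFR2 and CD44, fell from 255 to 10.7 CPM (log2 -4.44, -4.65 to -4.24). GRHL2, an activator of junction genes and an opponent of ZEB1, fell from 67.7 to 3.28 CPM (log2 -4.0, -4.31 to -3.68). A smaller loss was that of the ETS factor EHF, from 215 to 24.1 CPM. OVOL1 and OVOL2, zinc finger repressors of mesenchymal genes, fell by 2.75 and by 1.81 on the log2 scale. Other members of the list stayed within the fold: KLF5 had 122 and 122 CPM and ELF3 179.7 and 151 CPM.

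Genes of cell contacts and keratins mostly fell or stayed within the fold, with few increases. Of 10 genes of adherens junctions and EPCAM, 6 fell and 1 rose (median -1.69). Among them EPCAM fell from 480.3 to 24.1 CPM. The catenin genes that couple cadherins to actin stayed within the fold, CTNNB1 with 353 and 308 CPM and CTNNA1 with 629.9 and 807 CPM, and the nectin gene NECTIN1 rose from 15.7 to 38.1 CPM. Of 17 tight junction genes 6 fell and 2 rose (median -0.72), which is 35.3% and 11.8%, against 7.79% and 10.5% of all tested genes. CLDN7, a claudin of tight epithelia, fell from 171 to 10.9 CPM and MARVELD3 from 28.8 to 2.64 CPM, while CLDN1 rose from 17.4 to 117 CPM beside the far larger increase of CLDN2. The claudin genes therefore moved in opposite directions within 1 family. Of 10 desmosome genes 5 fell and 1 rose (median -1.13). With DESeq2 size factors DSG2, DSP and EVPL, within the fold here, were lower too, DSP also with TMM library sizes. The plakophilin gene PKP2 fell from 19.4 to 3.86 CPM and the plakin gene PPL from 19.3 to 4.24 CPM, whereas the desmocollin gene DSC3 rose from 2.25 to 6.30 CPM. Of 7 keratins 5 fell and 0 rose (median -1.38), among them KRT7 from 1215 to 466 CPM and KRT15 from 47 to 12.3 CPM. Of the 13 genes that the study's supplement marks as epithelial, a number that differs from the one in its main text, 7 fell and 0 rose (median -1.19). The study applied this list to these libraries, so that its direction is not independent evidence.

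Genes of epithelial polarity, membrane trafficking and surface proteolysis had the lowest median of the epithelial lists, -2.38, with 10 of 12 lower and 0 higher. RAB25, a small GTPase of recycling endosomes, fell from 22.3 to 0.515 CPM (log2 -3.94, -4.24 to -3.51), and AP1M2, the epithelial subunit of a sorting adaptor, from 58.4 to 3.22 CPM. ST14, the membrane protease matriptase, fell from 188 to 21 CPM. Its inhibitor SPINT1 fell from 105 to 37.9 CPM, and the related inhibitor SPINT2 had 174 and 112 CPM. Mucin and CEACAM genes were lower in 8 of 9 cases and higher in 0 (median -2.27). The gel-forming mucin MUC5B fell from 121 to 12.2 CPM, MUC1 from 34.9 to 7.85 CPM and MUC16, which carries the CA-125 antigen, from 618 to 238 CPM.

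Since ZEB and SNAI proteins bind the E-box letters CAGGTG or CACCTG, which are the same site read on opposite strands, promoters in the RefSeq table (build GRCh38.p14, 250 bases before to 50 bases after each start) were searched for them on both strands. Of all 35116 promoters, 7231 (20.6%) held at least 1 and 3.49% at least 2. A comparison of higher with lower genes is void, because 71.4% of either group have an entry and 80% were required. An entry was found for 133 of the 186 genes named by rule, and CDH1, CDH3 and EPCAM are among those without. The following promoters were chosen after the values were seen, those of CLDN7, LAD1 and RAB25 because these epithelial genes fell and hold more than 1 such match, and that of CRP because it rose most. Capitals mark the matches, which are a description of letters and not evidence of a bound site or a cause. The CLDN7 promoter (chr17:7262429-7262728, minus strand) held 5 matches, the LAD1 promoter (chr1:201399275-201399574, minus strand) 2, the RAB25 promoter (chr1:156060910-156061209, plus strand) 2 and the CRP promoter (chr1:159714540-159714839, minus strand) 1.
CLDN7: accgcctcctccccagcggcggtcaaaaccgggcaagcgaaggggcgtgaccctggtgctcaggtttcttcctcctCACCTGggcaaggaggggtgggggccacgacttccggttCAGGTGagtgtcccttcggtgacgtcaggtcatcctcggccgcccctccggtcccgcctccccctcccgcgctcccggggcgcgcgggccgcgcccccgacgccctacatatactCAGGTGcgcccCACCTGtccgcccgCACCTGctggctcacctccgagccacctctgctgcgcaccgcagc
LAD1: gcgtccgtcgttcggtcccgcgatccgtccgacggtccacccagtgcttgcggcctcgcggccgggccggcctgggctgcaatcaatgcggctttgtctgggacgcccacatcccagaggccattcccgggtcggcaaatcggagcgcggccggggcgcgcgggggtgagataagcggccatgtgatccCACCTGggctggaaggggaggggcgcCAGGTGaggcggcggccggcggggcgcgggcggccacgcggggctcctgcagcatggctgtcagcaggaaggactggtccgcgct
RAB25: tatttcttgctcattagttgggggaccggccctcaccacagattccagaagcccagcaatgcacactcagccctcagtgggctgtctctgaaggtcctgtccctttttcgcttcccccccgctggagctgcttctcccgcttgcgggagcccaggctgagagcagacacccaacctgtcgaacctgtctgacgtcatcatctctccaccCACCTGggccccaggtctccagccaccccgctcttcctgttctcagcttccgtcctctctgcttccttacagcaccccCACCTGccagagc
CRP: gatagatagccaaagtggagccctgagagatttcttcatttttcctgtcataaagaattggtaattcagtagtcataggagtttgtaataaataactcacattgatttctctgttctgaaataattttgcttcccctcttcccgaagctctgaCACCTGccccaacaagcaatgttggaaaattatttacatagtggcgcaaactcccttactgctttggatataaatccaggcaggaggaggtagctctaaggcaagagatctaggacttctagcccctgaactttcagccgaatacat

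The same sequences differ in CG dinucleotides, the letters at which DNA is methylated. The CLDN7 promoter held 30, the LAD1 promoter 38, the RAB25 promoter 9 and the CRP promoter 3, against a median of 14 over all promoters of the table. CLDN7 has another start in the table, at chr17:7263164-7263463, with 0 E-box matches and 10 CG. LAD1, which encodes the anchoring filament protein ladinin, fell from 184 to 28.7 CPM.

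Mesenchymal genes rose in part. Of 28 tested genes that the same supplement marks as mesenchymal, 15 rose and 2 fell (median 1.30). Among the risers COL3A1, VCAM1, CDH2 and WNT5A reached the mean of 1 CPM only through HCC827GR. The study applied this list, too, to these libraries. VIM, vimentin, the intermediate filament of mesenchymal cells, had 65.6 CPM in HCC827P and 675 CPM in HCC827GR. CDH2, N-cadherin, went from 3 counts to 14.8 CPM (log2 3.75, 3.35 to 3.98). CDH6, a cadherin of kidney tubules, had the largest change of the other cadherins, from 4.15 to 132 CPM, while the protocadherin gene PCDH1 fell from 23.2 to 3.54 CPM and 2 of 4 tested genes of that list rose in all. Vimentin was the exception among 12 cytoskeletal genes, of which 1 rose and 0 fell (median 0.31). MYL9, a myosin light chain, had 5.54 and 4.70 CPM and CALD1, caldesmon, 136 and 124 CPM. ACTA2, smooth muscle actin, had 0.865 and 2.32 CPM (log2 0.83, 0.34 to 1.28), within the fold here and past it with a pseudocount of 0.1 CPM.

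Among the transcription factors of EMT, ZEB2 rose from 1.73 to 50.5 CPM (log2 4.24, 3.88 to 4.56) and ZEB1 from 6.23 to 44.1 CPM (log2 2.64, 2.38 to 2.90). SNAI1, which encodes Snail, fell from 7.15 to 2.83 CPM (log2 -1.09, -1.47 to -0.70), a change within the fold with a pseudocount of 5 CPM. SNAI2 had 4.56 and 6.37 CPM, TWIST2 2.77 and 1.93 CPM, and TWIST1 0 counts and 1 count. Thus both ZEB genes rose while no Snail or Twist gene did. Of 6 tested factors 2 rose and 1 fell, and their median of 0.11 turned to -0.03 with DESeq2 size factors.

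Matrix genes moved in both directions. Of 10 tested matrix and matricellular genes 6 rose and 2 fell (median 1.44). VCAN, the proteoglycan versican, rose from 178 to 799.5 CPM and FN1, fibronectin, from 216 to 506 CPM. TGFBI, a matrix protein induced by TGF-beta, fell from 2201 to 740.1 CPM, and CCN1, a target of YAP, from 216 to 94.4 CPM. For TGFBI the 2 libraries of HepG2 differed by 1.69 on the log2 scale, more than the HCC827 pair (-1.57). Of 16 collagen genes 6 rose and 2 fell (median 0.32). COL12A1, a fibril-associated collagen, rose from 1.10 to 26.9 CPM, and the basement membrane chain COL4A1 from 19.8 to 128 CPM. The fibrillar COL3A1 had 0 counts in HCC827P and 9.58 CPM in HCC827GR, at least 55.4-fold more, and COL17A1, a collagen of hemidesmosomes, fell from 115 to 11.4 CPM. The summed level of the 21 listed collagens was 329.9 CPM in HCC827P and 656 CPM in HCC827GR.

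Receptors for the matrix shifted in the same lists. Of 17 integrin and laminin genes 3 rose and 6 fell (median -0.13). ITGB6 and ITGB8 both encode partners of integrin alpha V that can release active TGF-beta, and they moved in opposite directions. ITGB6, of epithelial cells, fell from 192 to 11.1 CPM (log2 -4.0, -4.20 to -3.79). ITGB8 rose from 2.77 to 77.6 CPM (log2 4.38, 4.06 to 4.68). ITGAV, their common partner, had 346 and 416 CPM. The hemidesmosome integrin ITGB4 fell from 45.1 to 8.75 CPM. Of 13 matrix proteases and plasminogen regulators 8 rose and 1 fell (median 1.38). The collagenase gene MMP1 rose from 27.9 to 440.4 CPM and the protease inhibitor SERPINE2 from 60.9 to 685 CPM, while PLAU, the urokinase, fell from 427 to 199.8 CPM. Of 16 genes of TGF-beta signalling 4 rose and 1 fell (median 0.47), which is 25% and 6.25%, against 10.5% and 7.79% of all tested genes. The ligand TGFB1 rose from 25.8 to 86.8 CPM and INHBA, a chain of activin A, from 3.86 to 17.2 CPM, while LTBP2, a latent TGF-beta binding protein, fell from 12.9 to 2.57 CPM.

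**Figure D4:**
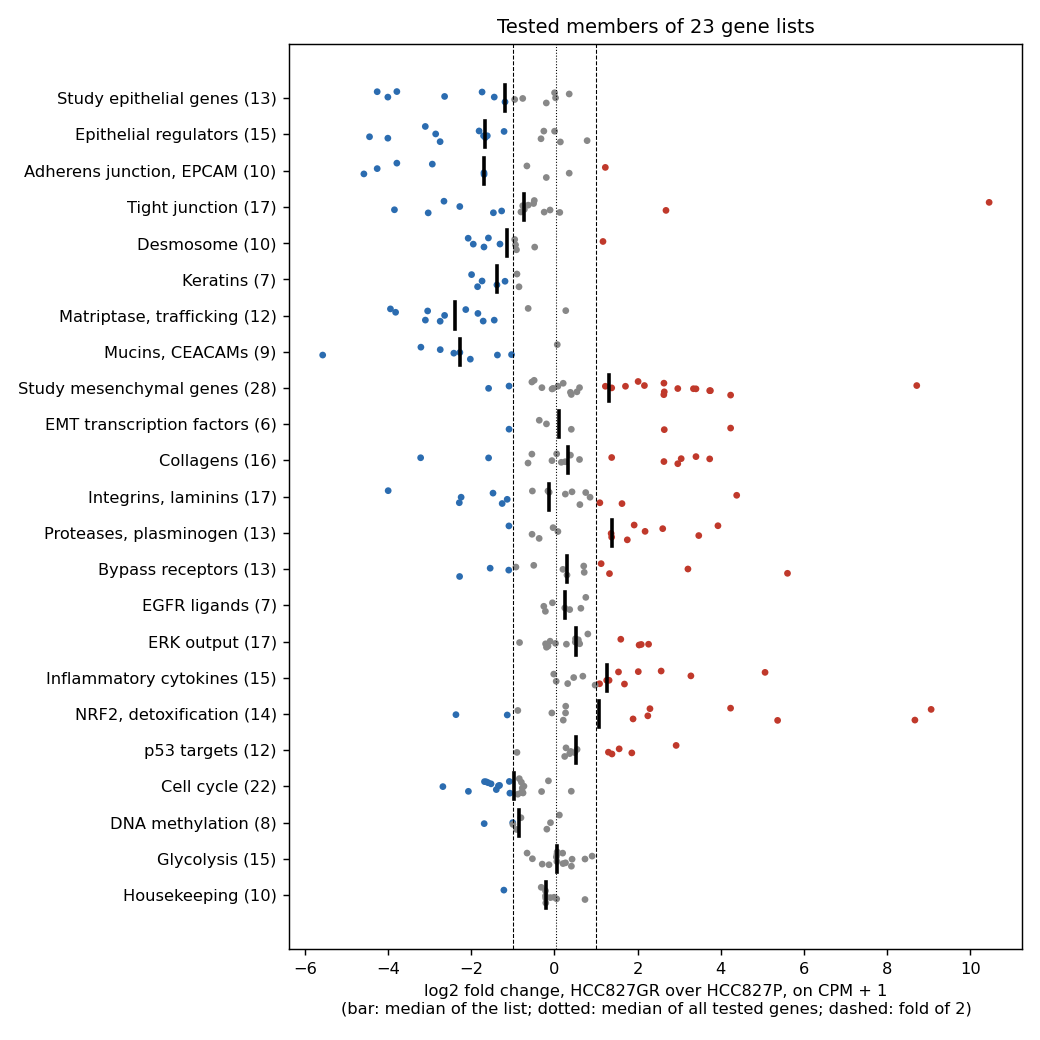
Log2 fold change of CPM + 1, HCC827GR over HCC827P (x axis), of each tested gene (points, red past the 2-fold limit upwards, blue downwards) on 23 gene lists (y axis, tested genes in brackets), with bars at list medians and a dotted line at the median of all tested genes. The median is -2.38 for matriptase and trafficking genes and 1.38 for proteases, and the medians of glycolysis and EMT factors change sign with DESeq2 size factors.

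The drug target had nearly the same level in both lines. EGFR lies on chromosome 7 from 55086710 to 55279321 and had 7113 CPM in HCC827P and 7069 CPM in HCC827GR, a log2 fold change of -0.01 (-0.02 to 0.00). Of 12 tested genes of a list around EGFR, 0 rose and 1 fell (median -0.08). The chaperonin gene CCT6A had 2516 and 1688 CPM. The gene that fell, from 39.9 to 13.2 CPM, was the actin nucleator COBL, which lies further off, from 51083909 to 51384515. Among the other EGFR family receptors ERBB3, which lacks a strong kinase and couples to PI3K, fell from 85.9 to 27.9 CPM (log2 -1.59, -1.74 to -1.44), and ERBB2 had 63 and 45.7 CPM. The median of the 3 tested family members was -0.45, and ERBB4 had at most 0.257 CPM. Of 7 tested EGFR family ligands 0 rose and 0 fell (median 0.25), with 434 and 560.5 CPM for epiregulin (EREG) and 34.6 and 59.1 CPM for TGFA.

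Among the tested bypass receptors FGFR1 and FGFR3 had the largest changes. FGFR1 rose from 6.63 to 370.3 CPM (log2 5.60, 5.37 to 5.83), and its highest level in another line was 179.5 CPM in HepG2 replicate 2. FGFR3 rose from 3.92 to 44.6 CPM and FGFR4 from 17 to 44.1 CPM, while FGFR2 stayed under 1 CPM. The ligand FGF2 had 28.8 and 25.9 CPM. MET, the receptor of hepatocyte growth factor, had 1295 and 918 CPM (log2 -0.50, -0.53 to -0.47). AXL, the receptor of GAS6, had 2.31 and 4.44 CPM (log2 0.72, 0.29 to 1.13). Neither of these receptors passed the fold. MST1R, the MET relative RON, fell from 32.9 to 5.98 CPM and the collagen receptor DDR1 from 117 to 54.1 CPM. In all, 4 of 13 tested bypass receptors rose and 3 fell (median 0.30), and 4 of 11 of their ligands rose and 2 fell (median 0.46). PDGFC, a ligand of PDGF receptors, rose from 26.1 to 86.2 CPM, HGF had 19.2 and 23.6 CPM, and GAS6 fell from 2.65 to 0.643 CPM.

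No gene on the list of those that ERK signalling switches on fell past the fold. Of 17 such genes 4 rose and 0 fell (median 0.51). SPRY4, a feedback inhibitor of receptor signalling, rose from 7.44 to 39.6 CPM, and the ERK phosphatase DUSP4 from 17.5 to 77.8 CPM. DUSP6, the phosphatase most used as a readout of ERK activity, had 56.3 and 31.1 CPM (log2 -0.84), within the fold, and CCND1, cyclin D1, 435 and 648 CPM. Of 18 kinases and regulators of the RAS-ERK and PI3K-AKT cascades 1 rose and 0 fell, and their median of 0.13 turned to -0.02 with DESeq2 size factors. AKT1 had 98.5 and 72.7 CPM.

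Cell death and drug efflux genes gave single large changes. BCL2, which blocks apoptosis at mitochondria, had 0 counts in HCC827P and 39.6 CPM in HCC827GR, at least 229-fold more. BCL2L11, whose product BIM mediates the death of EGFR-dependent cells under EGFR inhibitors, had 50.6 and 37.2 CPM (log2 -0.44, -0.58 to -0.29). BBC3, the p53 target PUMA, rose from 6.29 to 20.5 CPM, and the survival gene BCL2A1 fell from 49.8 to 20.3 CPM. In the whole BCL2 family 2 of 13 tested genes rose and 1 fell (median 0.35). These shares, 15.4% and 7.69%, are near the 10.5% and 7.79% of all tested genes. Of 8 drug transporters 2 rose and 1 fell (median 0.34). ABCB1, P-glycoprotein, rose from 1.27 to 32.1 CPM (log2 3.87, 3.48 to 4.19). ABCC3 rose from 155 to 317 CPM, just past the fold and within it under TMM or DESeq2 scaling. ABCG2, a transporter that exports gefitinib, fell from 2.65 to 0.707 CPM.

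Aldo-keto reductases, enzymes that reduce carbonyls and are in part targets of the oxidant sensor NRF2, made up most of the increases in the detoxification list. Of 14 tested genes of this list 7 rose and 2 fell (median 1.08). Besides AKR1C2, its neighbour AKR1C1 rose from 1.15 to 87.9 CPM, AKR1C3 from 7.04 to 150.4 CPM and the aldose reductase AKR1B1 from 63.3 to 315 CPM. HMOX1, heme oxygenase, rose from 7.73 to 31.4 CPM. The NRF2 targets NQO1, with 136 and 164 CPM, and GCLM, with 116 and 111 CPM, stayed within the fold, and TXNRD1, thioredoxin reductase, fell from 1609 to 733 CPM. Of the retinaldehyde dehydrogenases, ALDH1A3 fell from 73.5 to 13.4 CPM while ALDH1A1 rose.

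Cytokine genes rose in part, and interferon-stimulated genes moved both ways. Of 15 tested cytokine and NF-kB target genes 9 rose and 0 fell (median 1.26). IL32, a cytokine of epithelial and lymphoid cells, rose from 0.865 to 61.4 CPM (log2 5.06, 4.67 to 5.37), and IL6, which induces acute-phase genes, from 8.42 to 90.6 CPM (log2 3.28, 3.06 to 3.50). The neutrophil attractants CXCL5 and CXCL8 rose from 1033 to 4185 CPM and from 452 to 1455 CPM. IL1B, by contrast, had 58.4 and 57.8 CPM and the NF-kB inhibitor gene NFKBIA 354 and 365 CPM. Among the 5 NF-kB subunits, a list chosen after seeing the data, 2 rose and 1 fell: NFKB2 rose from 53.9 to 179 CPM, RELB from 10.9 to 43.9 CPM, and REL fell from 20.4 to 9.45 CPM. NFKB2 and RELB are the partners of the non-canonical pathway. Of 17 interferon-stimulated genes 1 rose and 5 fell (median -0.15), with IFI27 falling from 26.6 to 5.60 CPM and IRF7 rising from 8.83 to 22.1 CPM. Of 12 genes of MHC class I presentation 3 rose and 0 fell, and their median of 0.12 turned to -0.01 with DESeq2 size factors. The count depended on the setting. HLA-E was within the fold with DESeq2 size factors, and TAP1 with DESeq2 size factors, TMM or a pseudocount of 5 CPM. TAPBP, tapasin, which loads peptides, rose from 100.1 to 284 CPM, while TAP2 of the peptide transporter had 66.3 and 42 CPM. Of 11 S100 genes 1 rose and 3 fell (median -0.14), S100A14 from 22.1 to 0.772 CPM and S100A3 upwards from 1.56 to 6.50 CPM.

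CRP is a liver protein, so further lists of liver genes were drawn up after seeing the data. Of 24 secreted liver proteins 11 were abundant enough to test. Without CRP, which prompted the list, 5 of the 10 others rose and 2 fell (median 1.85), and their summed level over all 23 genes went from 389.8 to 1572 CPM. The fibrinogen chains FGA, FGB and FGG, neighbours on chromosome 4, rose from 2.31 to 89.3, from 58.7 to 641 and from 6.11 to 79.1 CPM. Complement C3 rose from 17.7 to 324 CPM. Other liver genes did not follow: SAA1 had 42.1 and 41.9 CPM, SERPINA3 fell from 61 to 10.2 CPM, and albumin (ALB) and APOA1 had at most 0.193 CPM. Of 7 tested liver transcription factors 3 rose and 1 fell. The riser HNF4G was within the fold with a pseudocount of 5 CPM, TMM or DESeq2 size factors. NR1H4, the bile acid receptor FXR, had 0 counts in HCC827P and 80.7 CPM in HCC827GR, at least 466-fold more. CEBPB, an activator of acute-phase genes, rose from 76.8 to 255 CPM, whereas HNF4A, a master factor of hepatocytes, had 0 counts in both lines. HCC827GR thus gained some acute-phase genes and not others. SAA1 stayed level, SERPINA3 fell, and SAA2 fell but was within the fold with a pseudocount of 5 CPM. Neither albumin nor HNF4A was gained.

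Further genes of the lung lineage list went in opposite directions. GATA6, a factor of endoderm and distal lung, rose from 7.56 to 36.6 CPM, while SLC34A2, the phosphate carrier of alveolar cells, fell from 8.08 to 0.193 CPM. Neuroendocrine change was looked for because some resistant lung cancers take on small-cell features. NEUROD1, INSM1 and CHGA had 0 counts in both lines. ENO2, an enolase of neurons and tumours, rose from 148 to 445 CPM. NCAM1 went from 0 counts to 2.32 CPM, at least 13.4-fold more, and reached the mean of 1 CPM only through HCC827GR. The same holds for the cancer-testis gene MAGEA6, the tested one of 12, which went from 1 count to 5.40 CPM (log2 2.60, 2.18 to 2.87).

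Proliferation genes fell or stayed within the fold. Of 22 tested cell cycle genes 11 fell and 0 rose (median -0.97). TOP2A, the topoisomerase of dividing cells, fell from 1417 to 220.2 CPM (log2 -2.68, -2.73 to -2.63), RRM2, which makes deoxynucleotides, from 495 to 117 CPM, and the proliferation marker MKI67 from 754 to 286 CPM. The 2 libraries of HepG2 differed more than that: the median log2 difference of replicate 2 over replicate 1 across the same 22 genes was -2.12, and 9 of the 11 genes that fell in HCC827GR had a larger difference there, with absolute values of 2.88 for TOP2A and 2.25 for RRM2. In HepG2S3 and HCC4006ER that median was -0.06 and 0.29. On each other list at most 1 gene past the fold had a larger difference between the HepG2 libraries. These genes were TGFBI, ABCG2 and ASNS, with absolute values of 1.69, 1.62 and 1.37 between the HepG2 libraries. This comparison of lists was added after seeing the data. TYMS, thymidylate synthase, had 83.1 and 110.5 CPM. Of 12 regulators of the G1 phase 2 rose and 0 fell (median 0.30, and 1 fell with TMM or DESeq2 size factors), the risers being the CDK inhibitors CDKN1A, from 34.1 to 85.3 CPM, and CDKN1C, from 0.461 to 3.09 CPM. CDKN1C was within the fold with a pseudocount of 5 CPM. CCND3 and CDKN2B, within the fold here, were higher with a pseudocount of 0.1 CPM or the total without mitochondrial and most abundant genes. Of 12 p53 target genes, a list that CDKN1A and BBC3 also belong to, 5 rose and 0 fell (median 0.52, and 1 fell with DESeq2 size factors). GDF15, a stress-induced cytokine, rose from 6.34 to 54.9 CPM, while MDM2, the ubiquitin ligase of p53, had 77.4 and 92.1 CPM. Of 12 genes of the unfolded protein and integrated stress responses 4 rose and 1 fell (median 0.83), DNAJB9 rising from 15.9 to 45.6 CPM and ASNS, asparagine synthetase, falling from 81.7 to 35.1 CPM. HERPUD1 and ATF3, higher here, were within the fold with a pseudocount of 5 CPM or DESeq2 size factors, HERPUD1 also with TMM.

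Metabolic and control genes moved little. Of 15 tested glycolysis genes 0 rose and 0 fell, and their median of 0.07 turned to -0.08 with DESeq2 size factors. HK1 and HK2, the hexokinases that start glycolysis, had 102 and 192 CPM and 104 and 65.5 CPM. Of 13 genes of cholesterol and fatty acid synthesis 0 rose and 0 fell (median -0.06), but ACLY, with 593 and 301 CPM, was past the fold with TMM and with DESeq2 size factors. Of 10 housekeeping genes 0 rose and 1 fell (median -0.21). ACTB had 3805 and 3560.5 CPM and GAPDH 4859 and 8094 CPM (log2 0.74), and HPRT1, of purine salvage, fell from 162 to 69.3 CPM. Among 12 YAP pathway genes 2 rose and 2 fell (median -0.03), with AJUBA falling from 105 to 27.8 CPM and ANKRD1 rising from 1.15 to 4.50 CPM. That is 16.7% in either direction, against 10.5% higher and 7.79% lower among all tested genes. Both risers, ANKRD1 and LATS2, were within the fold with a pseudocount of 5 CPM, and LATS2 also with DESeq2 size factors. Among 6 tested WNT genes 1 rose and 1 fell (median 0.49): WNT5A, a non-canonical ligand, rose from 0.231 to 6.62 CPM, and RNF43, which removes WNT receptors, fell from 2.19 CPM to 0 counts, at least 11.4-fold lower. WNT5A reached the mean of 1 CPM only through HCC827GR, and RNF43 only through HCC827P. Of 8 genes that write, erase or read DNA methylation 0 rose and 2 fell (median -0.86). DNMT3B, a methyltransferase that sets new marks, fell from 24.8 to 7.01 CPM (log2 -1.69, -1.96 to -1.41). DNMT1, which copies marks after replication, lay at the threshold with 463 and 231 CPM (log2 -1.0, -1.06 to -0.95), so its call turns on small shifts of scale. DNMT3A lay there too, with 47.1 and 23.1 CPM (log2 -1.0). The number of lower genes on this list was 1 with a pseudocount of 5 CPM or with the total without mitochondrial and most abundant genes, 3 with TMM and 4 with DESeq2 size factors or a pseudocount of 0.1 CPM.

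Where the changed genes lie was described with a GENCODE annotation of GRCh37. Genes of chromosome 14 had the lowest median log2 fold change of all chromosomes, -0.55, with 83 of 411 tested genes lower and 20 higher. Chromosome 2 followed with a median of -0.38, with 154 of 881 genes lower and 52 higher. That is 20.2% lower and 4.87% higher on chromosome 14 and 17.5% and 5.90% on chromosome 2. Over all chromosomes 7.93% were lower and 10.6% higher. The medians of the other chromosomes lay between -0.11 (chromosome 12) and 0.25 (chromosome 22). The shift ran along both chromosomes. In bins of 10 Mb with at least 20 tested genes, a division chosen after seeing the data, 7 of 7 bins of chromosome 14 and 22 of 23 of chromosome 2 had a median below 0, against 106 of 248 bins of all chromosomes. The median of chromosome 14 was -0.28 in HCC4006GR and -0.14 in HCC4006ER against their parents, and that of chromosome 2 was -0.07 and 0.11.

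A short stretch of chromosome 17 went the other way. Few ribosomal protein genes passed the fold, with 3 of 77 tested genes higher and 2 lower. The family leaned downwards by a small amount, with a median of -0.19 and 76.6% of its genes below 0, against 47.4% over all chromosomes. Yet RPL23 rose from 1382 to 4809 CPM (log2 1.80, 1.78 to 1.82) and RPL19 from 1498 to 3972 CPM (log2 1.41, 1.39 to 1.43). These genes of the large ribosomal subunit bound a span of 357 kb, from 37004113 to 37361093, with 5 tested protein-coding genes, of which 4 rose. Between them LASP1, an actin-binding protein of focal adhesions, rose from 352 to 2288 CPM (log2 2.70, 2.66 to 2.73), more than in any of the other 19 libraries, the highest of which had 1098 CPM. CACNB1, a calcium channel subunit, rose from 4.79 to 15.1 CPM, and PLXDC1 had 0.923 and 1.99 CPM. The nearest tested genes outside the span did not pass the fold, TBC1D3 with 2.13 and 3.28 CPM before it and FBXL20 with 12.8 and 15.2 CPM after it, nor did ERBB2 further on. The span was picked after its values were seen. At 20 to 30 Mb of chromosome 19 the opposite was found for zinc finger genes named ZNF: 7 of 23 fell and 0 rose, with a median of -0.93, against 0.00 for the 216 tested ZNF genes of other chromosomes, a group also chosen after seeing the data. Between gene length and log2 fold change Spearman's rho was -0.02 across 12067 protein-coding genes, which are not independent replicates.

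**Figure D5:**
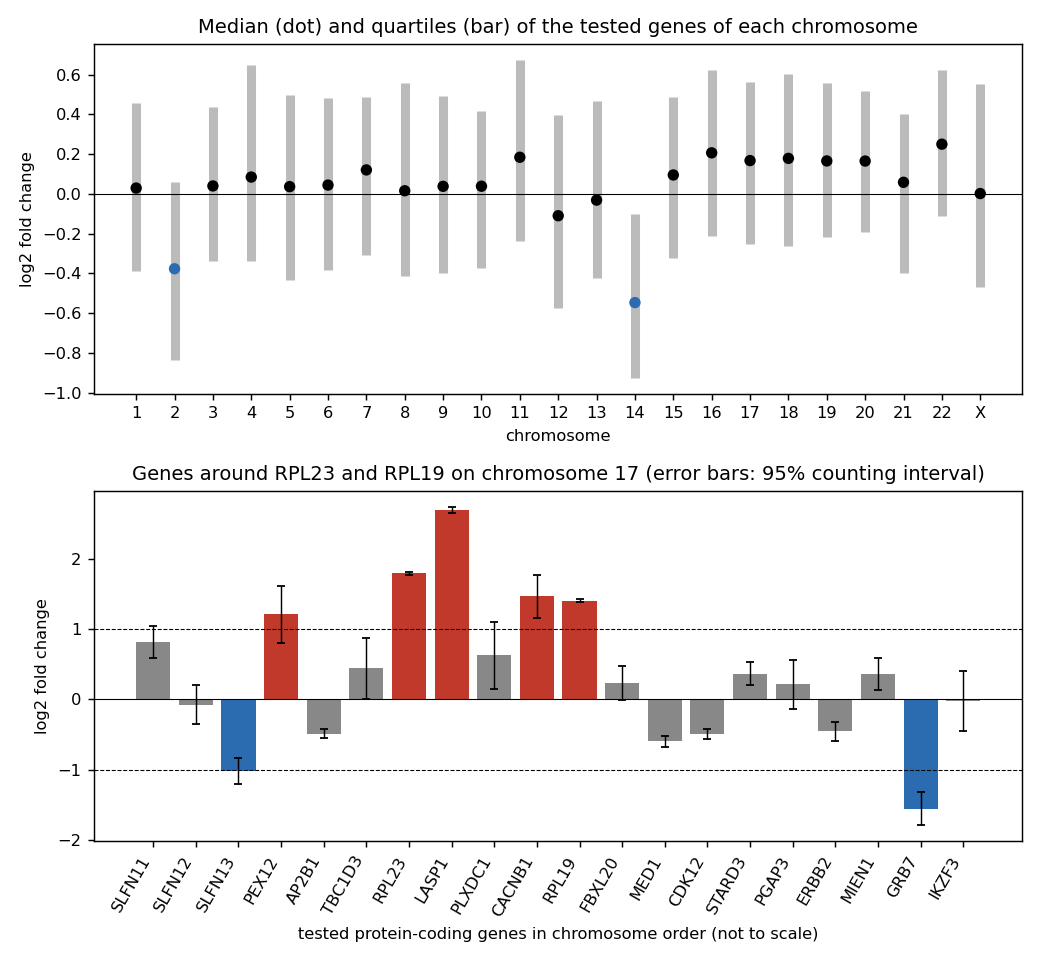
Top: median (dot) and quartiles (bar) of the log2 fold change of tested genes (y axis) on each chromosome (x axis), with chromosomes 2 and 14 in blue at -0.38 and -0.55. Bottom: log2 fold change (y axis) of tested protein-coding genes around RPL23 and RPL19 in chromosome order (x axis, not to scale), bars starting at 0 with 95% counting intervals, red and blue past the 2-fold limit; LASP1 stands highest at 2.70.

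The series holds other lung lines made resistant to EGFR inhibitors, HCC4006GR (gefitinib) from HCC4006P2 and HCC4006ER (erlotinib) from HCC4006P1, which share no library with the HCC827 pair. HCC4006GR had 1137 of 14821 tested genes higher (7.67%) and 1108 lower (7.48%) than its parent. HCC4006ER, as the mean of its 2 libraries against HCC4006P1 replicate 2 (replicate 1 lacks counts for part of the genome), had 2113 of 14006 tested genes higher (15.1%) and 1368 lower (9.77%). Of the genes higher in HCC827GR 279 were also higher in HCC4006GR, which is 19.3% of the former and 24.5% of the latter list, and 311 were lower in both (28.9% and 28.1%), while 76 were higher in HCC827GR and lower in HCC4006GR and 96 the reverse. With HCC4006ER 399 higher genes were shared (27.6% and 18.9%) and 329 lower genes (30.6% and 24.0%), while 104 were higher in HCC827GR and lower in HCC4006ER and 53 the reverse. Past the fold in the same direction in all 3 pairs were 122 higher and 101 lower genes. Differences between the pairs were not tested, since most of the lines have 1 library.

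Side by side, the medians of the epithelial lists were lowest in HCC4006ER and highest in HCC4006GR, with HCC827GR between them. For the epithelial regulators they were -1.66 in HCC827GR, -0.49 in HCC4006GR and -3.01 in HCC4006ER, for the keratins -1.38, 0.38 and -2.80, and for the tight junction genes -0.72, -0.11 and -2.09. EPCAM differed from that order, with a log2 fold change of -4.26 in HCC827GR, -0.35 in HCC4006GR and -3.88 in HCC4006ER. CDH3 had a log2 fold change of -4.58 in HCC827GR, 0.31 in HCC4006GR and -5.16 in HCC4006ER. The values of ESRP1 were -4.44, -0.71 and -6.74, and those of GRHL2 -4.0, -0.94 and -6.07. ZEB2 rose in all 3 pairs, with 4.24, 3.86 and 5.30, as did the collagen gene COL6A2 with 2.97, 3.25 and 7.35. The cadherin gene CDH6 had 4.69, 2.47 and 4.25, complement C3 4.12, 5.65 and 2.74, and GATA6 2.14, 2.42 and 1.93. The increases of CRP and CLDN2 had no counterpart there. CRP had 0 counts in HCC4006P2 and HCC4006GR and in the HCC4006ER pair, and CLDN2 stayed at or under 1.69 CPM in both HCC4006 pairs. Other secreted liver proteins did rise there. On that list 5 of 8 tested genes rose and 0 fell in HCC4006GR (median 3.84), and 3 of 5 rose and 1 fell in HCC4006ER (median 1.54). With CRP, 6 of 11 rose and 2 fell in HCC827GR (median 3.15). FGFR1 rose in HCC4006ER as well, with 5.60, 0.88 and 3.24. In HCC4006GR 20 of 22 cell cycle genes fell and TOP2A had -2.54, and in HCC4006ER 6 of 22 fell and TOP2A had 0.03. Cell cycle genes were lower in all 3 pairs by their medians, -0.97 in HCC827GR, -1.79 in HCC4006GR and -0.70 in HCC4006ER. The difference of -2.12 between the HepG2 libraries was larger than each of these medians. Interferon-stimulated genes were not alike, with 14 of 17 higher in HCC4006GR and 4 higher in HCC4006ER, against 1 in HCC827GR. The detoxification list had 7 genes higher in HCC827GR, 4 of 14 in HCC4006GR and 0 of 13 in HCC4006ER, where 11 fell (median -1.78).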

How the data were processed

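RNA of HCC827P and HCC827GR was sequenced, and the authors deposited raw counts of reads per Ensembl gene for each library. Per the submitters' processing notes the reads were mapped to hg19 with Bowtie and TopHat, sorted with SAMtools and counted with HTSeq, without versions. The study's methods also name a kit for 3′ ends with STAR and do not say which libraries it made. Of the aligned reads with 1 position, 12.1% in HCC827P and 12.7% in HCC827GR lay on no gene, and 3.53% and 3.60% on more than 1. Counts were divided by the total on genes to give CPM, and log2 fold changes were taken on CPM + 1. Tested were genes with a mean of at least 1 CPM, and a fold of 2 was the limit. The interval of a log2 fold change joins the 95% Wilson intervals of both libraries. A fold against 0 counts was computed against 3 counts in that library. With such genes set to that bound, the median moved in 2 lists, the neuroendocrine and the fibroblast list, for which no median is given. No set or rank test was made.

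The members and the 47 gene lists were chosen with earlier results of these data known, and 3 more lists were chosen after seeing the data. Named by rule were the 10 protein-coding genes with the largest and the 10 with the smallest log2 fold change among those with a mean of at least 10 CPM, the 2 highest and 2 lowest tested genes of each list, and a set of EMT, EGFR, DNA methylation and control genes, 186 in all. Other genes in the text were chosen after their values were seen. Of 53515 genes 45100 matched a GENCODE annotation of GRCh37 by identifier. Of the 586 different genes on the lists 10 were not matched and are not analysed, among them PRSS2, ITGB3, GBAS, DDX58, CCL5, SRXN1, ACACA, UHRF1 and PECAM1. Levels of Y-linked genes and XIST are not given. Alternatives were pseudocounts of 0.1 and 5 CPM, TMM library sizes, DESeq2 size factors, a total without mitochondrial and the 10 most abundant genes, other filters and a fold of 4. Python 3.11.15 with numpy 2.4.6, pandas 2.3.3, scipy 1.17.1 and matplotlib 3.10.9 and R 4.3.3 with edgeR 4.0.16 and DESeq2 1.42.0 were used, and the counting steps were tested on simulated data.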

Additional observations from a re-analysis of the deposited data

Results flagged for a closer look

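Of the 186 genes named by rule, 53 were past the fold both in HCC827GR against HCC827P and in HCC4006GR against HCC4006P2, the other gefitinib pair of the series, and 17 of them moved in opposite directions, of which 16 are given here. That is 32.1% of the named genes past the fold in both pairs, against 172 of 762 (22.6%) among all tested genes, and many named genes were picked as extremes of HCC827GR. With 1 library per line these differences between the pairs were not tested. The log2 fold change in HCC827GR and then in HCC4006GR was -4.56 and 2.51 for the calgranulin gene S100A9, -4.0 and 1.06 for the epithelial integrin gene ITGB6 and -3.22 and 1.33 for the hemidesmosome collagen gene COL17A1. It was -2.07 and 1.70 for the interferon-stimulated gene IFI27, -1.99 and 2.49 for the keratin gene KRT6A, -1.96 and 3.48 for the latent TGF-beta binding protein gene LTBP2 and -1.58 and 1.12 for the fibrillar collagen gene COL1A1. The values were -1.57 and 1.34 for the matrix protein gene TGFBI, -1.54 and 2.52 for the receptor kinase gene ROS1, -1.41 and 1.48 for the antiviral synthetase gene OAS1 and -1.25 and 1.82 for the survival gene BCL2A1. They were -1.13 and 1.07 for the thioredoxin reductase gene TXNRD1, -1.09 and 1.74 for the urokinase gene PLAU, -1.09 and 1.31 for the Snail gene SNAI1 and -1.03 and 1.07 for the adhesion gene CEACAM1. These genes fell in HCC827GR and rose in HCC4006GR. The reverse held for SPRY4, a feedback inhibitor of receptor signalling, with 2.26 in HCC827GR and -1.20 in HCC4006GR. With a pseudocount of 5 CPM the changes of KRT6A, COL1A1, ROS1, OAS1, SNAI1 and CEACAM1 in HCC827GR came within the fold. For TGFBI the libraries of HepG2 differed by 1.69, more than either of its changes here.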

How the results depend on the processing

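No paired analysis was possible because each line has 1 library. The number of genes higher in HCC827GR was 832 with a pseudocount of 5 CPM, 847 with a mean of at least 10 CPM and 400 with a fold of 4, against 1448. The number of lower genes was 686 with a pseudocount of 5 CPM and 215 with a fold of 4, against 1075. Each of these settings lowers the counts by construction, since it shrinks small values, tests fewer genes or asks for a larger fold. With a mean of at least 10 CPM 734 genes were lower, within 1.5 times of the reported count. Under the other settings both counts were within 1.5 times those reported, from 1187 to 1742 genes higher and from 1073 to 1436 lower. No named gene past the fold changed direction under any scaling or pseudocount. With a pseudocount of 5 CPM 19 of the 115 named genes past the fold came within it, among them SNAI1, COL1A1, ROS1 and DNMT1, with DESeq2 size factors 3 (ABCC3, HLA-E and LATS2), with TMM 1 (ABCC3) and with the reduced total 1 (DNMT1). Named genes within the fold passed it in 4 cases with a pseudocount of 0.1 CPM (among them DNMT3A and ACTA2), in 3 with TMM (among them DNMT3A and ACLY) and in 7 with DESeq2 size factors (among them DNMT3A, ACLY and KRT8). List medians moved most often with DESeq2 size factors, in 22 of 49 lists by more than the largest median difference of the same genes between 2 libraries of HepG2, HepG2S3 or HCC4006ER. With both HCC4006P1 libraries averaged, HCC4006ER shared 379 higher and 372 lower genes with HCC827GR, against 399 and 329. Depth limits genes with few counts. Where 1 line had under 3 counts, the added 1 CPM keeps the interval of the log2 fold change narrow. Such an interval does not show how uncertain the low level is.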
